A study of Mus musculus with 41 samples.

Results

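The transcription regulators that define innate lymphoid cell (ILC) and T helper lineages were followed through gut lymphocytes and cultured ILC2s: Gata3, Rora, Bcl11b, Id2, Gfi1, Tcf7, Tbx21, Ahr and Eomes. These 9 genes were chosen by name, with earlier results of these data known. All 9 were found among the 23420 genes of the culture table and among the 19221 genes of the single-cell matrix. Analysed here were 13 bulk RNA-seq libraries of cultured ILC2s and 27 of the droplet single-cell libraries of the series, with 58067 cells from the gut. All mice were female BALB/cJ.

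For the cultures, 250 KLRG1+ ILC2s per well were sorted from the small intestine of mice aged 8 weeks and kept for 3 h with IL-2 and IL-7 added, each at 100 ng/ml. This base medium alone gave 3 libraries, IL-25 at 100 ng/ml gave 3, α-CGRP at 0.4 μg/ml gave 4, and both agents together gave 3. Every group therefore received IL-2 and IL-7. The single-cell libraries came from mice aged 10 weeks, either with food allergy or wild type controls, which the labels describe no further. Of those analysed, Peyer's patch (PP) gave 10 control and 9 allergy libraries. A lamina propria (LP) sort labelled nonTB gave 3 and 3, and an LP sort labelled IgDLow gave 1 and 1. The labels do not say what these sorts kept, or whether libraries came from separate animals. In the cultures and LP nonTB, p-values therefore measure the spread between libraries, part of which may be technical. For PP and for the tissues, libraries were summed by date and condition, so p-values there measure the spread between these sums.

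ILCs are lymphocytes without antigen receptors that mirror the T helper subsets. Gata3 is required for ILC2s and T helper 2 cells, and Rora and Bcl11b support ILC2 development. Id2 blocks the DNA-binding E proteins and is needed by all ILCs. Gfi1 is a zinc finger repressor that sustains ILC2s, and Tcf7 encodes TCF-1, which acts early in both ILC and T cell development. Tbx21 (T-bet) and Eomes are T-box factors of ILC1s and natural killer (NK) cells. Ahr is a receptor for dietary and microbial ligands that ILC3s in the gut depend on.

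The 13 culture libraries held 6942739 to 21551863 rounded expected counts, of which the ribosomal RNA gene Rn45s took 57.5% to 78.7%. Median depth in the single-cell libraries lay between 1829 and 3975 unique molecular identifiers (UMIs) per cell. Both PP libraries of date 4, numbering the dates in the sample titles, stood apart. They held 1974 to 2881 CPM (counts scaled to a common library total) of the ribosomal RNA-derived gene Gm42418 against 123 to 345 in the other PP libraries, and 83.8% of their 4571 cells fell in 5 clusters with over 90% of cells from that date. Of all barcodes, 2180 occurred in more than 1 library, and within a date 303 did in PP and 117 in LP. Cells were grouped by clustering without the 9 genes and named from marker genes, so that no factor helped to define the class in which it was measured. The call "-like" marks a class named from such markers.

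Gata3 (chr2:9857078-9890034 in the GENCODE annotation of mm10) was high in ILC2-like cells and low in the other ILC classes. Its level was 1553 ± 199 CPM (SD, n = 15 libraries), with a range of 1065 to 1858 over libraries. The next named class, Treg-like cells, had 277 ± 143 CPM (n = 11), and the ranges did not overlap. The 3 ILC3-like classes lay at 94.9 to 106 CPM and the NK or ILC1-like class at 83.6 ± 22.3 CPM (n = 19), and these neighbours did not differ beyond their SD. A small unnamed T cell cluster led by Areg, Calca, Il13, Il17rb and Il4 reached 1649 CPM of Gata3 in the 1 library with enough cells, the IgDLow allergy library, with a counting interval of 1519 to 1787 CPM. That level lay within the range of the ILC2-like libraries.

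Rora (chr9:68653786-69388246), an orphan nuclear receptor, was shared by all helper-like ILC classes. It measured 755 ± 159 CPM in ILC2-like cells, 684 ± 129 in undivided ILC3-like cells, 629 ± 208 in Ccr6-high ILC3-like cells and 567 ± 113 in Ncr1-high ILC3-like cells, in 15, 6, 19 and 20 libraries. These 4 neighbours in the order did not differ beyond their SD. NK or ILC1-like cells followed at 188 ± 90.5 CPM (n = 19), and naive CD4 T-like cells held 17.7 ± 23.5 CPM (n = 17). Id2 (chr12:25093799-25097140) was likewise high in all ILC classes, with 1408 ± 444 CPM in Ncr1-high ILC3-like, 1303 ± 348 in Ccr6-high ILC3-like, 947 ± 322 in ILC2-like and 816 ± 261 in NK or ILC1-like cells. In B cell-like cells Id2 was at 49.995 ± 38.5 CPM (n = 22).

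Bcl11b (chr12:107910403-108003602), a zinc finger factor of T cell commitment, was highest in T cells. Tfh-like cells had 259 ± 70.6 CPM (n = 11), Treg-like cells 241 ± 82.5 (n = 11) and naive CD4 T-like cells 214 ± 51.3 (n = 17), which did not differ beyond their SD. Among ILCs, ILC2-like cells had 93.7 ± 39.0 CPM and Ncr1-high ILC3-like cells 44.5 ± 15.3 CPM. Ccr6-high ILC3-like cells had 3.51 ± 5.34 CPM (n = 19), a level not separated from the 2.23 ± 3.13 CPM of B cell-like cells. Over libraries, Bcl11b ranged from 20.7 to 75.4 CPM in Ncr1-high and from 0 to 22.05 CPM in Ccr6-high ILC3-like cells, so that the ranges met only at their ends.

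Tcf7 (chr11:52252371-52283014) and Tbx21 (chr11:97098071-97115331) had opposite orders across the ILC3-like classes. Tcf7 was at 389 ± 85.0 CPM in Ccr6-high cells and 179 ± 36.3 CPM in Ncr1-high cells, against 41.4 ± 18.2 CPM in ILC2-like cells and 555 ± 102 CPM in Tfh-like cells. Tbx21 was at 3.15 ± 5.77 CPM in Ccr6-high cells and 71.3 ± 31.1 CPM in Ncr1-high cells, and reached 115 ± 34.8 CPM in the NK or ILC1-like class. Ncr1-high, or NCR+, ILC3s are the subset known to need T-bet.

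Eomes (chr9:118478212-118486132) was highest in the NK or ILC1-like class, at 160 ± 65.7 CPM (n = 19). The next classes were unnamed T cells at 49.9 ± 25.2 CPM and CD8 T-like cells at 31.1 ± 23.7 CPM. No UMI of Eomes was found in 1083 Tfh-like cells, which allows a share of cells with a UMI of up to 0.277%. Ahr (chr12:35497974-35535038) was spread over the ILC classes, from 263 ± 119 CPM in undivided ILC3-like, 235 ± 45.0 in ILC2-like and 233 ± 90.5 in Ncr1-high ILC3-like cells to 164 ± 78.6 in Ccr6-high ILC3-like and 131 ± 62.6 in NK or ILC1-like cells. These neighbours in the order did not differ beyond their SD. Gfi1 (chr5:107716657-107726036) was low in every class, at 36.6 ± 12.002 CPM in ILC2-like and 5.35 ± 4.55 CPM in Ncr1-high ILC3-like cells. It was at 38.9 ± 21.3 CPM in gamma delta T-like, 32.7 ± 19.2 in Treg-like and 32.1 ± 12.1 in Tfh-like cells. These neighbours of the ILC2-like class in the order did not differ beyond their SD. The small T cell cluster with type 2 cytokine genes had 55.2 CPM in 1 library.

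**Figure D1:**
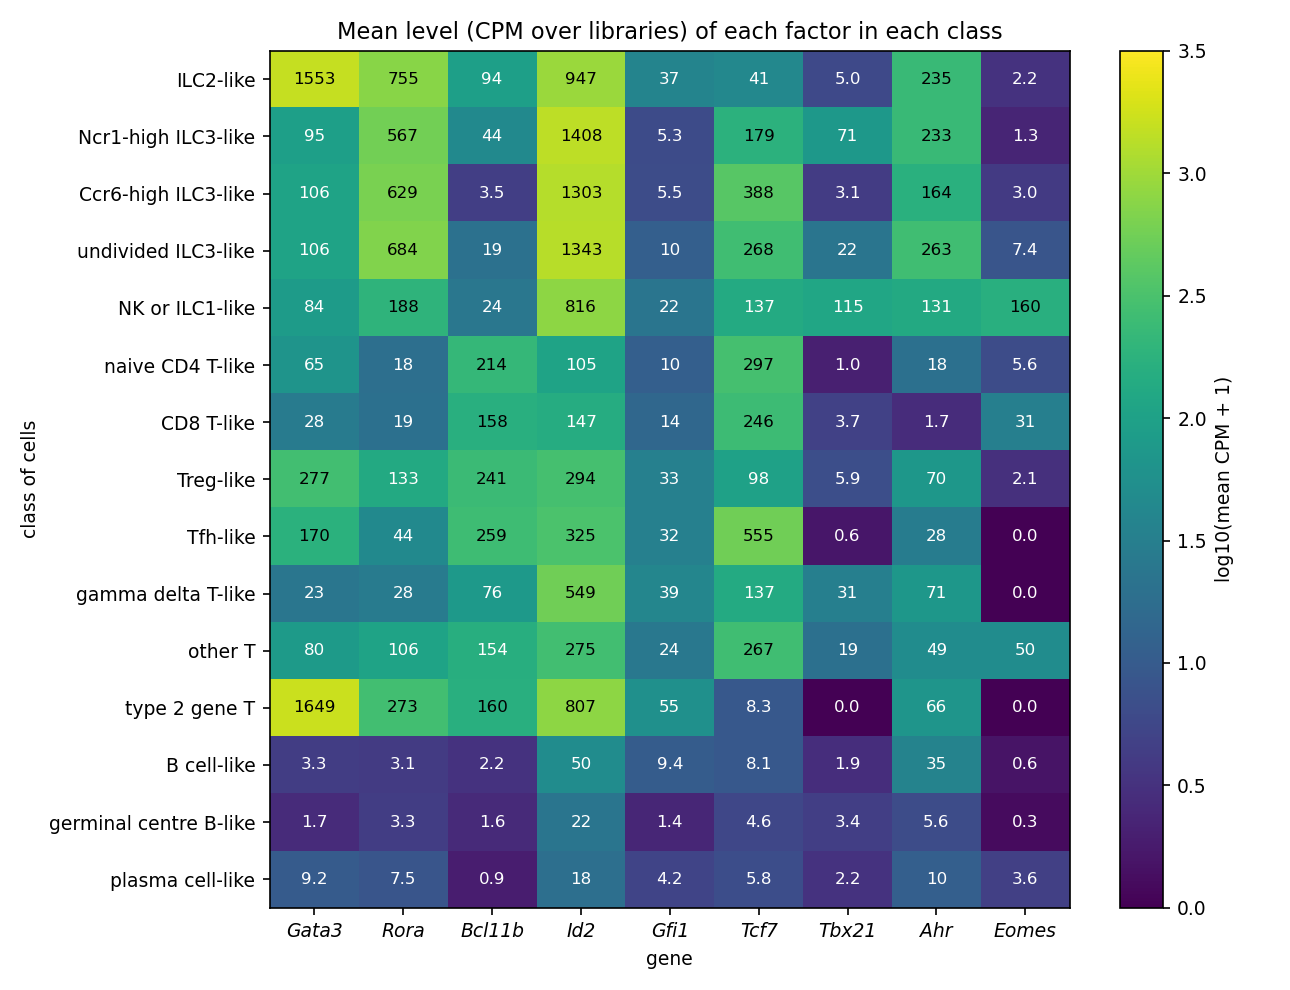
Mean level of each factor (columns) in each class of cells (rows), in CPM averaged over libraries with at least 20 cells of the class and coloured on a log10 scale. Gata3 is above 1500 CPM only in the ILC2-like class and the small T cell cluster with type 2 cytokine genes, while Rora and Id2 are high across the ILC rows and Eomes in the NK or ILC1-like row.

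Over 27 class-by-tissue means, the gene closest to each factor among 2999 compared was found by Pearson correlation of log2(CPM + 10). For Gata3 it was Areg (r = 0.88), an ILC2 growth factor and one of the markers that named the class. For Rora it was Dgat1 (r = 0.96), for Bcl11b Klk8 (0.95) and then Lat (0.95), for Id2 Traf1 (0.94), for Tcf7 Abhd8 (0.92), for Tbx21 Klrc1 (0.93) and then Fasl (0.91), for Ahr Plscr1 (0.94), for Eomes Ifitm10 (0.96), and for Gfi1 Art2b (0.78). Among the factors themselves, Rora and Id2 were most alike (r = 0.91), followed by Id2 with Ahr (0.83) and Rora with Ahr (0.80). For Eomes and Gata3 r was -0.01. The means share libraries and clusters, so these values are descriptions across classes.

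Droplets also carry free RNA, so shares of cells with a UMI are given beside those of B cell-like cells, which should lack most of the factors. After each cell was thinned to 1000 UMIs, with shallower cells left out, Gata3 was detected in 73.2% of ILC2-like cells, 8.79% of Ncr1-high ILC3-like cells and 0.307% of B cell-like cells. The unthinned median depths were 2110, 1933 and 2700 UMIs. Id2 was detected in 61.3% of Ncr1-high ILC3-like and 3.05% of B cell-like cells, and Rora in 45.7% of ILC2-like and 0.213% of B cell-like cells. Eomes was detected in 15.9% of NK or ILC1-like cells and 0.194% of ILC2-like cells. An ILC2-like cell carried a mean of 2.03 of the 9 factors at this depth, a Ncr1-high ILC3-like cell 1.60, an NK or ILC1-like cell 1.21, and a B cell-like cell 0.0806.

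Within most classes, cells with a pair of factors were about as frequent as the single shares predict. For each pair, the number of cells with both was compared with the number expected from the single shares within each library. Of 94 class and pair combinations with at least 3 expected cells in 3 or more libraries, the median ratio was 0.990. In ILC2-like cells, 15 pairs had ratios between 0.876 and 1.04. Gata3 and Rora there gave 1.02, with 0.903 to 1.11 over libraries. Sparse counts limit these ratios, which are descriptions.

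The NK or ILC1-like class held the widest range of ratios, and Rora and Eomes were the pair with the lowest. Only 30 cells held both, where 87.2 were expected, a ratio of 0.344. The ratio was below 1 in all 6 libraries with enough cells, from 0.0925 to 0.751. Ahr and Eomes also fell below 1 in 6 of 6 libraries (ratio 0.696), as did Tcf7 and Tbx21 (0.652), while Tcf7 and Ahr were above 1 in 6 of 6 (1.31). Tbx21 and Eomes, both T-box factors of this class, had a ratio of 0.884 and lay above 1 in 3 of 6 libraries.

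**Figure D2:**
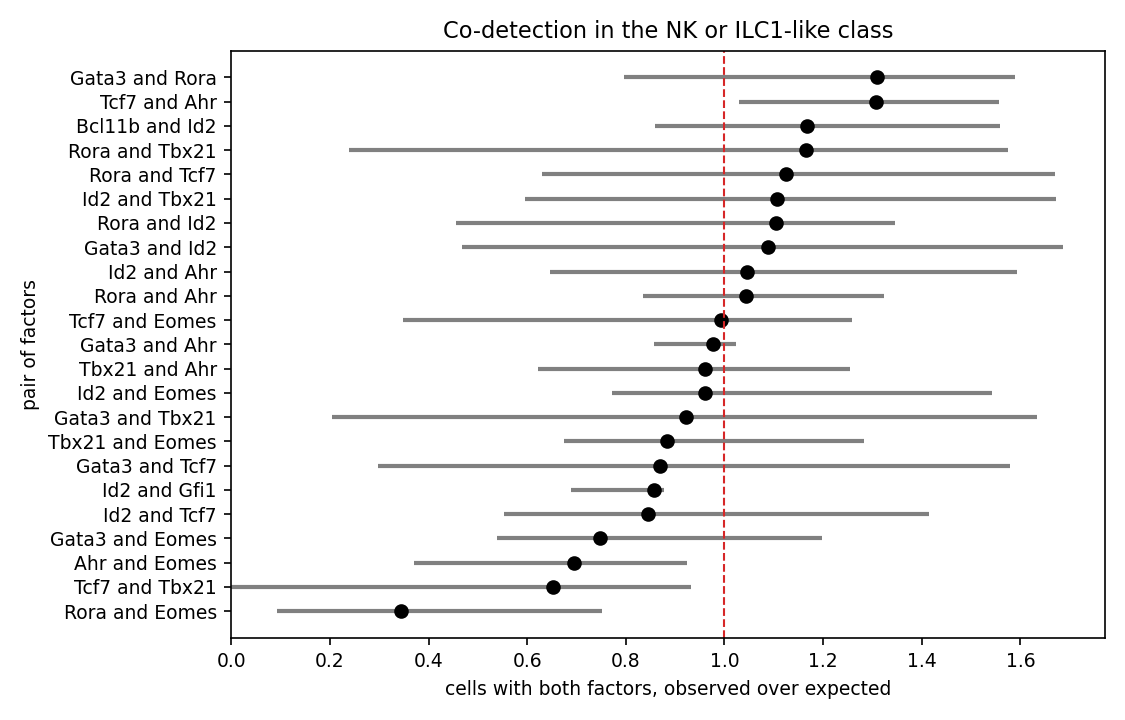
Observed over expected number of cells with both factors in the NK or ILC1-like class, for 23 pairs, with points for the value over all libraries and bars for the range over libraries. Rora with Eomes lies farthest below 1 at 0.344.

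Sub-clusters of the same class, also made without the factors, differed in Eomes and Rora, although the ranges of Rora overlapped. There were 10 sub-clusters, with 2124 cells, that had Eomes between 239 and 394 CPM, and Rora there was 34.3 to 148 CPM. The other 9 sub-clusters, with 1850 cells, had Eomes between 13.6 and 66.1 CPM and Rora between 122 and 624 CPM. Cxcr6, a chemokine receptor of tissue-resident lymphocytes, was 5.97 to 75.9 CPM in the first set and 186 to 536 CPM in the second. Il7r had medians of 138 and 496 CPM and overlapped between the sets (33.6 to 316 and 140 to 884 CPM). Itga2, which encodes the NK cell integrin CD49b, had medians of 15.6 and 2.55 CPM and overlapped at the ends (4.89 to 22.6 and 0 to 5.83 CPM). Tbx21 overlapped between the sets, with medians of 91.1 and 102 CPM, and so did Ahr (79.5 and 151 CPM) and Gata3 (61.8 and 117 CPM). Clusters are built from the same cells, so these differences carry no test, and the set of sub-clusters was divided at 200 CPM of Eomes after the levels were seen. Cd3e, a part of the T cell receptor complex, had medians of 3.93 and 12.7 CPM in the sets, and 1 sub-cluster of 48 cells with low Eomes held 146 CPM.

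**Figure D3:**
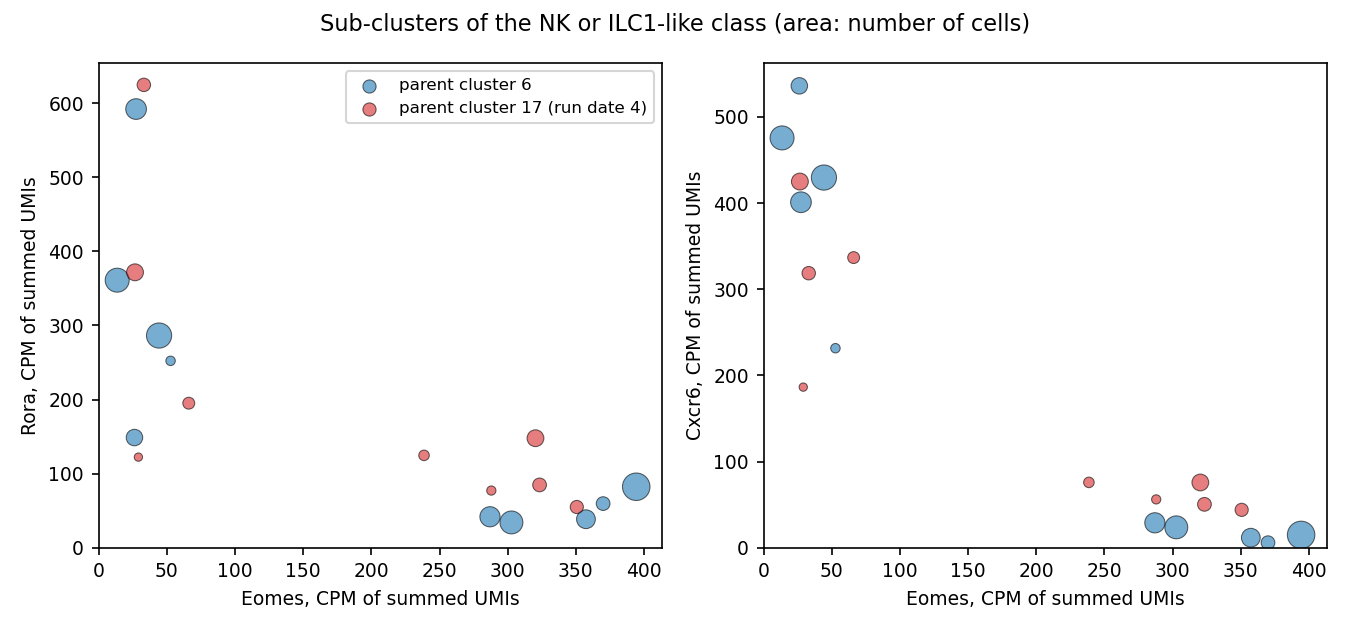
Rora (left) and Cxcr6 (right) against Eomes in the 19 sub-clusters of the NK or ILC1-like class, in CPM of summed UMIs, with area proportional to cell number. Sub-clusters above 200 CPM of Eomes all lie below 150 CPM of Rora, both in the cells of date 4 and in the rest.

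α-CGRP, a neuropeptide whose receptor raises cyclic AMP, was added to the ILC2 cultures for 3 h. Of the 9 factors, 2 changed against base medium: Gata3 rose and Gfi1 fell, in edgeR's quasi-likelihood test at an adjusted p under 0.05 over 12355 genes. By comparison, edgeR called 1.49% of all genes tested. Each share of all genes or pairs given here is that of edgeR. The share that DESeq2 called is not given, so its counts have no background. In bulk libraries a change in the number of cells with a transcript and a change per cell cannot be told apart. The annotation places opposite-strand genes over the spans of Gata3, Rora, Gfi1, Tcf7, Ahr and Eomes, and same-strand genes over those of Gata3 and Tcf7. The library method does not mark strand, so reads from any sequence shared with these genes cannot be told apart. Whether exons overlap was not examined.

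Gata3 was at 314, 334 and 382 CPM in base medium and at 647, 758, 801 and 617 CPM with CGRP. All 4 CGRP libraries were above all 3 base libraries. The log2 fold change was 1.04 ± 0.24 (SE), or 2.05-fold, with an adjusted p of 0.0282. The call was lost when any 1 base library was left out (adjusted p between 0.0739 and 0.152), without CGRP library 3 (0.0569) and without library 3 of both agents (0.05003), while the log2 fold change lay between 0.98 and 1.14. It was also lost with the replicate number as a block in the fit. With both agents Gata3 was at 847, 480 and 691 CPM, and against base medium the difference (log2 0.97 ± 0.26, adjusted p = 0.0887) was called only by DESeq2 (0.00291) and without library 2 of both agents (0.0303).

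Gfi1 was at 4.72, 9.82 and 3.95 CPM in base medium and at 1.22, 0.239, 1.95 and 0.704 CPM with CGRP, from 63 to 83 and 4 to 31 reads per library. The groups did not overlap. The log2 fold change was -2.56 ± 0.62, or 5.91-fold lower, with an adjusted p of 0.0350. This call rested on few reads and was lost without any 1 of the base libraries (0.0554 to 0.256), without CGRP library 1, 2 or 4 (0.0513 to 0.0968), or when only the groups compared entered the fit (0.0824). The replicate block removed this call as well. With both agents Gfi1 was at 2.00, 2.85 and 3.26 CPM.

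Rora and Ahr did not pass the threshold for CGRP alone. Neither overlapped with base medium, but the share of all genes whose groups do not overlap is not given for any comparison here. Rora was at 178, 181 and 208 CPM in base medium and at 355, 269, 317 and 327 CPM with CGRP (log2 0.75 ± 0.23, adjusted p = 0.113). With both agents Rora rose to 437, 345 and 373 CPM, a log2 fold change of 1.03 ± 0.25 with an adjusted p of 0.0435, the only factor called of 9 in that comparison, where 0.882% of all genes were. That call was lost without any 1 base library (0.130 to 0.256), any 1 library with both agents (0.0512 to 0.213), IL-25 library 1 or 3 (0.0606 and 0.0628), or CGRP library 1, 3 or 4 (0.05001 to 0.0631), and with no filter on low counts (0.0872). The replicate block also removed it.

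Ahr was at 54.1, 69.4 and 44.9 CPM in base medium and at 27.7, 30.2, 20.9 and 18.2 CPM with CGRP, all below the lowest base library. Its log2 difference of -1.21 ± 0.31 narrowly missed the threshold in edgeR (adjusted p = 0.0509), and DESeq2 called it (0.00931). With IL-25, Ahr was at 107, 65.1 and 73.5 CPM, and with both agents at 17.5, 53.9 and 29.1 CPM. This log2 difference of -1.30 ± 0.34 was not called by edgeR (adjusted p = 0.0812) and was called by DESeq2 (0.0187). DESeq2 called 4 of the 9 factors for CGRP against base, adding Rora and Ahr to Gata3 and Gfi1. The share of all genes that DESeq2 called is not given. The comparisons with base medium share those 3 libraries.

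**Figure D4:**
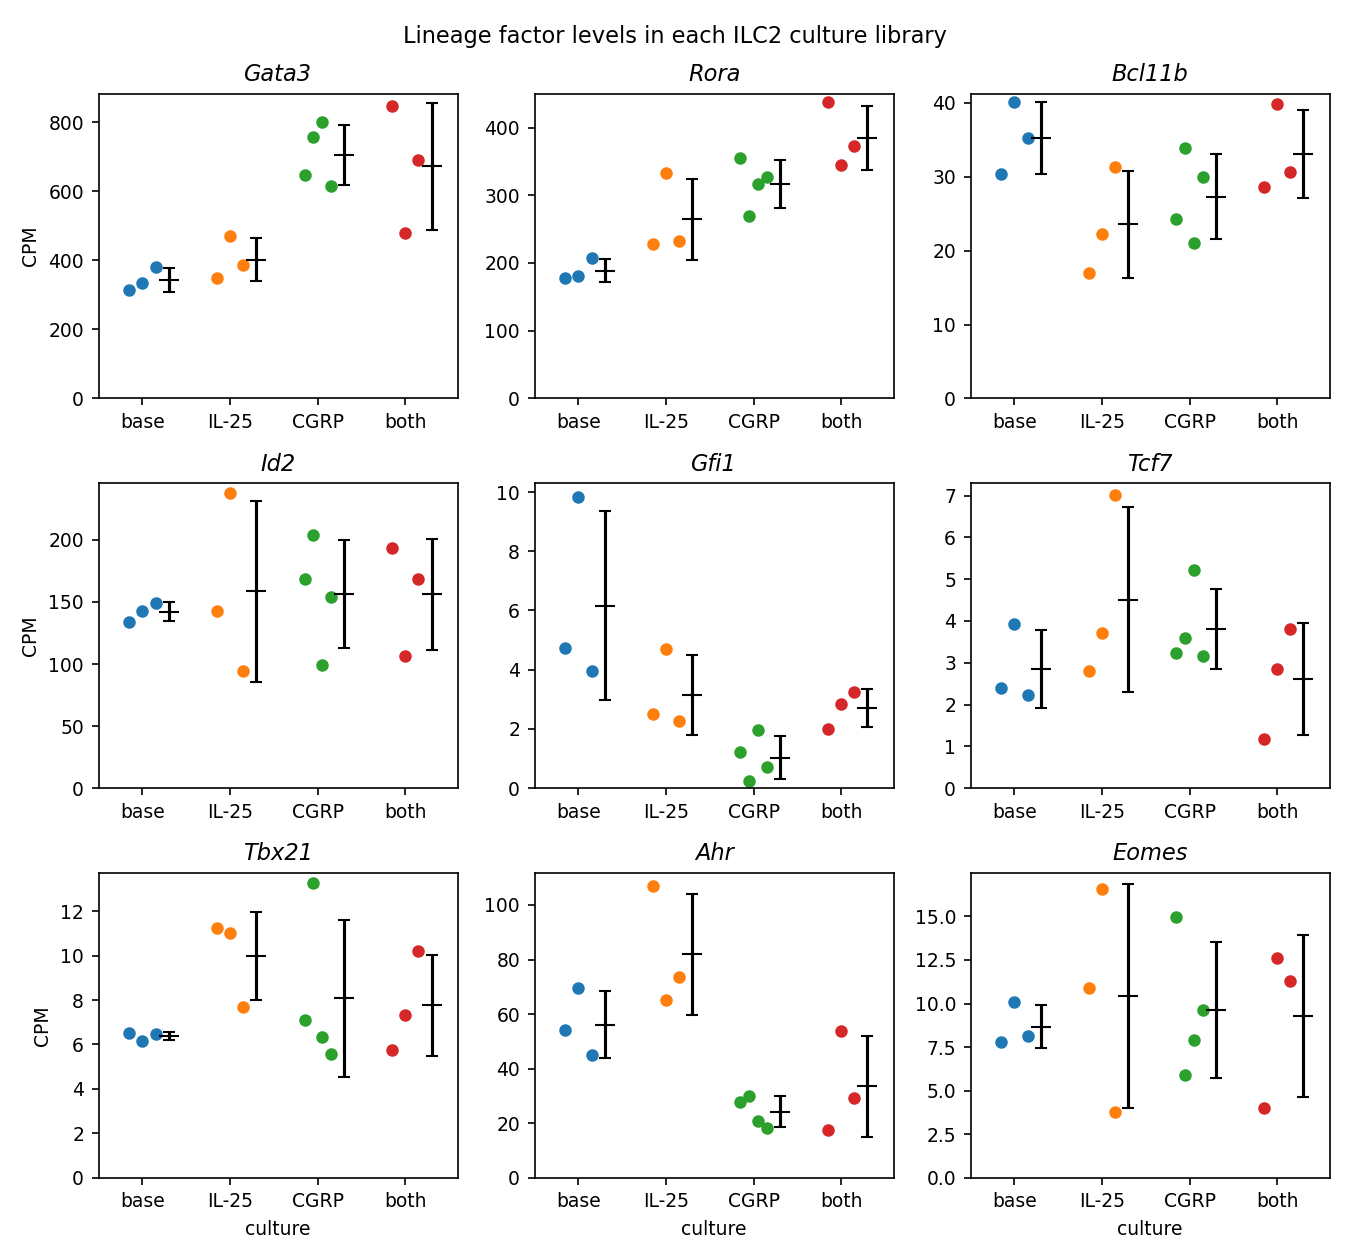
Level of each factor in every culture library (points, TMM-scaled CPM), with mean and SD beside each group of 3 or 4 libraries. Gata3 lies between 617 and 801 CPM in the CGRP libraries and between 314 and 382 CPM in the base libraries, while Gfi1 and Ahr are lower with CGRP and Id2 overlaps between the groups.

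IL-25, made by tuft cells and a stimulus of ILC2s, was also tested by itself. Against base medium edgeR called 0 of 9, with 0 at an unadjusted p under 0.05, and DESeq2 called 0, where 0.0728% of all genes were called. Rora (means of 265 and 189 CPM) and Tbx21 (9.99 and 6.38 CPM) were higher with IL-25 without overlap between the groups. Neither was called, and the share of all genes without overlap is not given. In data simulated for this comparison, 4.76% of genes raised 2-fold and 67.9% of genes raised 4-fold were called. Of genes lowered to 0.5 of their level, 2.13% were. Changes of that size can therefore be missed. When CGRP was added to IL-25, edgeR called 0 of 9 with 3 at an unadjusted p under 0.05, against 0.631% of all genes. DESeq2 called 2 of 9, without a share of all genes to set beside it. IL-25 added to CGRP gave 0 of 9, with 1 at an unadjusted p under 0.05 and 0 in DESeq2, where 0.113% of all genes were called. The interaction of the agents was called for 0 factors by either tool and for no gene (0%), with Gfi1 and Bcl11b at an unadjusted p under 0.05. Id2, Tcf7, Tbx21 and Eomes were called in no comparison of the cultures. Id2 had means between 142 and 158 CPM in all 4 groups, and its log2 difference with CGRP was 0.14 ± 0.30.

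Of 45 ILC and T cell regulators listed for comparison, 42 were tested, and with CGRP 4 rose and 1 fell, against 1.49% of all genes called. The list was chosen with earlier results of these data known, so its counts, here and below, are descriptions. Lmo4, a LIM-domain adaptor, rose from 95.2 to 436 CPM (log2 2.19 ± 0.28, adjusted p = 9.29e-05), and the Ikaros family member Ikzf3 rose from 51.9 to 199 CPM (1.94 ± 0.26). Nfil3 and Tox, both needed in ILC precursors, rose with log2 fold changes of 1.37 and 1.39, and Ikzf1 fell by 1.24 on the log2 scale. The call of Nfil3 was lost without base library 1 or 3 (highest adjusted p = 0.0757), and that of Ikzf1 without base library 1, 2 or 3 or CGRP library 1 or 4 (highest 0.144). The list's median log2 fold change was 0.05, and that of the 9 factors 0.16, against 2.3e-05 over all genes. None of the 8 tested paralogs of the factors, the 3 E protein genes or the 7 tested Ahr pathway genes was called. The summed ILC2 markers were 917 to 1152 CPM in base medium and 2138 to 3221 CPM with CGRP, with 3 of 14 called higher, and NK or ILC1 markers were 441 to 522 and 571 to 798 CPM, with 0 of 14 tested called. Treg markers were 206 to 239 and 111 to 135 CPM (1 of 6 lower), and Tfh markers 19.5 to 31.3 and 90.6 to 111 CPM (1 of 6 higher). Their part in the factors' changes was not tested.

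The promoters of the factors called with CGRP, alone or with IL-25, are shown because cyclic AMP acts through CREB, which binds the element TGACGTCA or its part TGACG. The 250 bases before the start are given from RefSeq (GRCm38.p6), 5′ to 3′ on the gene's strand, for Gata3 at chr2:9878601-9878850 (minus strand), Rora at chr9:68653536-68653785 (plus strand) and Gfi1 at chr5:107725806-107726055 (minus strand). Capitals mark matches to any of 5 motifs searched on both strands.

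Gata3: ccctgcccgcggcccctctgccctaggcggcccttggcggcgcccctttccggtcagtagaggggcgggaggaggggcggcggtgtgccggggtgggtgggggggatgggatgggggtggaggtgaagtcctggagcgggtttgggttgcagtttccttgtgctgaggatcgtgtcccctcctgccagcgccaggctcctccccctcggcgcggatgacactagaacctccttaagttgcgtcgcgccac
Rora: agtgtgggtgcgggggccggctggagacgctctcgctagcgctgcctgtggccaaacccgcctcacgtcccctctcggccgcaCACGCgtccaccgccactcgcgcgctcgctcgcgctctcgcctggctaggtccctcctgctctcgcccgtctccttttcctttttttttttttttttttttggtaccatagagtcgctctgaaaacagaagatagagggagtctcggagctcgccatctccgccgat
Gfi1: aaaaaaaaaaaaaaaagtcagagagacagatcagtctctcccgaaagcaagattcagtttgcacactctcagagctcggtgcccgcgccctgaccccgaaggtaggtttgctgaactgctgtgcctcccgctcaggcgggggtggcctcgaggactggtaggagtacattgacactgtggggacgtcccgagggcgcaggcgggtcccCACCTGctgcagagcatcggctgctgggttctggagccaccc

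Neither element, of which the shorter lies within the longer, was present before any of the 10 starts found for 8 of the 9 factors, while 1.55% and 17.8% of all 32851 promoters held them. CAGGTG, an E-box bound by E proteins, which Id2 holds off DNA, was present in Gfi1 and Tbx21 and in 17.2% of all promoters. The GATA factor motif AGATAA was found before none of the factors and in 9.99% of promoters. The core bound by Ahr with its partner Arnt, GCGTG, was found in Rora and in 28.2% of promoters. A match describes letters, and its absence says nothing of binding outside the window.

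Food allergy was compared with control in the LP nonTB libraries, with the date in the title as a term. CPM of single-cell sums were scaled by total UMIs alone, whereas log2 fold changes also used TMM normalization. The log2 fold changes can therefore differ in size from the CPM shown. Of 30 class and factor pairs tested, 5 were called by edgeR at an adjusted p under 0.05, where 4.88% of all class and gene pairs were called. Leaving out 1 library gave between 2 and 10 calls, the latter without allergy library 3 or control library 3. The largest of the 5 changes was that of Ahr in Ccr6-high ILC3-like cells, where 2.68% of all genes were called. It was at 51.9, 64.5 and 76.8 CPM in controls, from 10, 18 and 37 UMIs, and at 254, 222 and 196 CPM in allergy. The groups did not overlap. The log2 fold change was 1.73 ± 0.21, or 3.32-fold, with an adjusted p of 0.000167, and the call held in all 14 alternatives, where it ranged from 1.60 to 2.01.

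Ahr also rose in Ncr1-high ILC3-like and ILC2-like cells of the LP nonTB libraries. In Ncr1-high ILC3-like cells it was at 123, 124 and 158 CPM in controls and 203, 181 and 236 CPM in allergy (log2 0.62 ± 0.11, adjusted p = 0.00392), in a class with 2.56% of all genes called. In ILC2-like cells it was at 232, 188 and 238 CPM in controls and 284, 278 and 275 CPM in allergy (log2 0.49 ± 0.16, adjusted p = 0.0358). In both classes all allergy libraries were above all controls. The Ncr1-high call was lost in DESeq2 (adjusted p = 0.0533), without the date term (0.141) and without allergy library 1 (0.0507). The ILC2-like call was lost in 7 of 14 alternatives, DESeq2 among them (0.300), and 18% of all genes tested were called in that class. Without allergy library 1 or 2 its adjusted p was 0.103 or 0.0921, and without control library 1 or 2 it was 0.0687 or 0.214. In NK or ILC1-like cells Ahr was at 57.0 to 110 CPM in allergy and 76.3 to 115 CPM in controls, which overlapped. The IgDLow sort, with 1 library per condition, had Ahr in ILC2-like cells at 228 CPM in allergy and 267 CPM in control. In its Ncr1-high ILC3-like cells Ahr was at 191 and 148 CPM, and the counting intervals overlapped in both classes.

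Tiparp, a target gene of Ahr that encodes a repressor of it, fell in the same 3 classes. In Ccr6-high ILC3-like cells it went from 116 ± 12.6 CPM in controls to 25.8 ± 6.96 CPM in allergy (log2 -2.16 ± 0.27, adjusted p = 0.000208). In Ncr1-high ILC3-like cells it went from 109 ± 11.6 to 24.6 ± 2.31 CPM (log2 -2.14 ± 0.17), and in ILC2-like cells from 272 ± 37.8 to 120 ± 34.9 CPM (log2 -1.08 ± 0.18), all with n = 3 and without overlap. Of 8 Ahr pathway genes listed, 2 to 4 were tested in each of these classes, and Tiparp was the only one called. The promoter of Tiparp (RefSeq GRCm38.p6, chr3:65528197-65528446, plus strand) is shown with its match to GCGTG, on the opposite strand, in capitals.

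Tiparp: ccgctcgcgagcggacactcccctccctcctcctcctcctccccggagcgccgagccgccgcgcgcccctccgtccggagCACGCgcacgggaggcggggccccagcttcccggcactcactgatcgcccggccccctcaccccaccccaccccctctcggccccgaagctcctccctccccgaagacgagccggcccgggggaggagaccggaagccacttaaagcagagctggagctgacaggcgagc

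Tbx21 rose in the Ncr1-high ILC3-like class. It was at 76.9, 81.3 and 55.2 CPM in controls and at 118, 140 and 93.8 CPM in allergy, without overlap (log2 0.73 ± 0.13, 1.65-fold, adjusted p = 0.00532). The call was lost in DESeq2 (0.0922), without the date term (0.0541), without allergy library 2 (0.0603) and without control library 1 (0.0603). Gata3 and Bcl11b, at lower levels in allergy, were not called there (log2 -0.54 ± 0.15, adjusted p = 0.0727, and -0.75 ± 0.21, adjusted p = 0.0801), although both were without allergy library 3 or control library 3 (0.00637 and 0.00672 for Gata3, 0.00150 and 0.00160 for Bcl11b).

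Bcl11b fell in ILC2-like cells. It was at 173, 133 and 140 CPM in controls and at 42.9, 64.4 and 88.2 CPM in allergy, a log2 fold change of -1.05 ± 0.24, or 2.08-fold lower, with an adjusted p of 0.00408. No allergy library reached the controls. DESeq2 did not call it (0.0692), nor did edgeR without allergy library 1 (0.0549). Gata3 was at 1632, 1672 and 1513 CPM in controls and at 1858, 1846 and 1459 CPM in allergy, which overlapped (log2 0.23 ± 0.09, adjusted p = 0.0677); it was called without allergy library 3 (0.00244) or control library 3 (0.00319). Of 24 other regulators tested in the class, 4 rose and 5 fell, against 18% of all genes called. Zeb2, a repressor of the ZEB family, rose from 22.7 ± 8.80 to 91.4 ± 29.0 CPM (log2 2.11 ± 0.30), Nfkb1 from 860 ± 111 to 1584 ± 348 CPM, and Stat4 from 47.8 ± 6.28 to 95.1 ± 11.8 CPM. Tox also rose (log2 0.96 ± 0.33). Arid5a fell by 1.26 on the log2 scale, and the other 4, Notch2, Runx3, Klf2 and Lmo4, had log2 fold changes from -0.72 to -0.24. The groups overlapped for Notch2, Runx3 and Klf2. Zeb2, Nfkb1 and Stat4 were called whichever library was left out, although DESeq2 did not call Stat4 (0.106). The other 6 calls were each lost without at least 4 of the 6 libraries taken 1 at a time. Their highest adjusted p was 0.242 for Tox, 0.231 for Runx3, 0.226 for Klf2, 0.162 for Arid5a, 0.156 for Notch2 and 0.101 for Lmo4. The list's median log2 fold change was 0.15.

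In the Ncr1-high class 1 of 35 other regulators tested rose, Satb1, and 2 fell, Nfil3 and Ikzf2, and in the NK or ILC1-like class, with 0.979% of all genes called, Ikzf2 fell from 707 ± 198 to 265 ± 12.7 CPM (log2 -1.33 ± 0.17). The call of Satb1 was lost without allergy library 1 or 2 or control library 1 or 2 (highest adjusted p = 0.255). Markers of other cell types were also measured in these sums. In ILC2-like cells ILC3 markers summed to 773 to 928 CPM in controls and 530 to 584 CPM in allergy, and ILC2 markers to 9647 to 10941 and 9788 to 11058 CPM. In Ccr6-high ILC3-like cells ILC3 markers summed to 6335 to 7600 and 5600 to 6412 CPM, and ILC2 markers to 233 to 376 and 311 to 640 CPM. NK or ILC1 markers there summed to 306 to 387 and 170 to 354 CPM, with 7 of 16 at 0 in every library. Their part in the factors' changes was not tested.

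**Figure D5:**
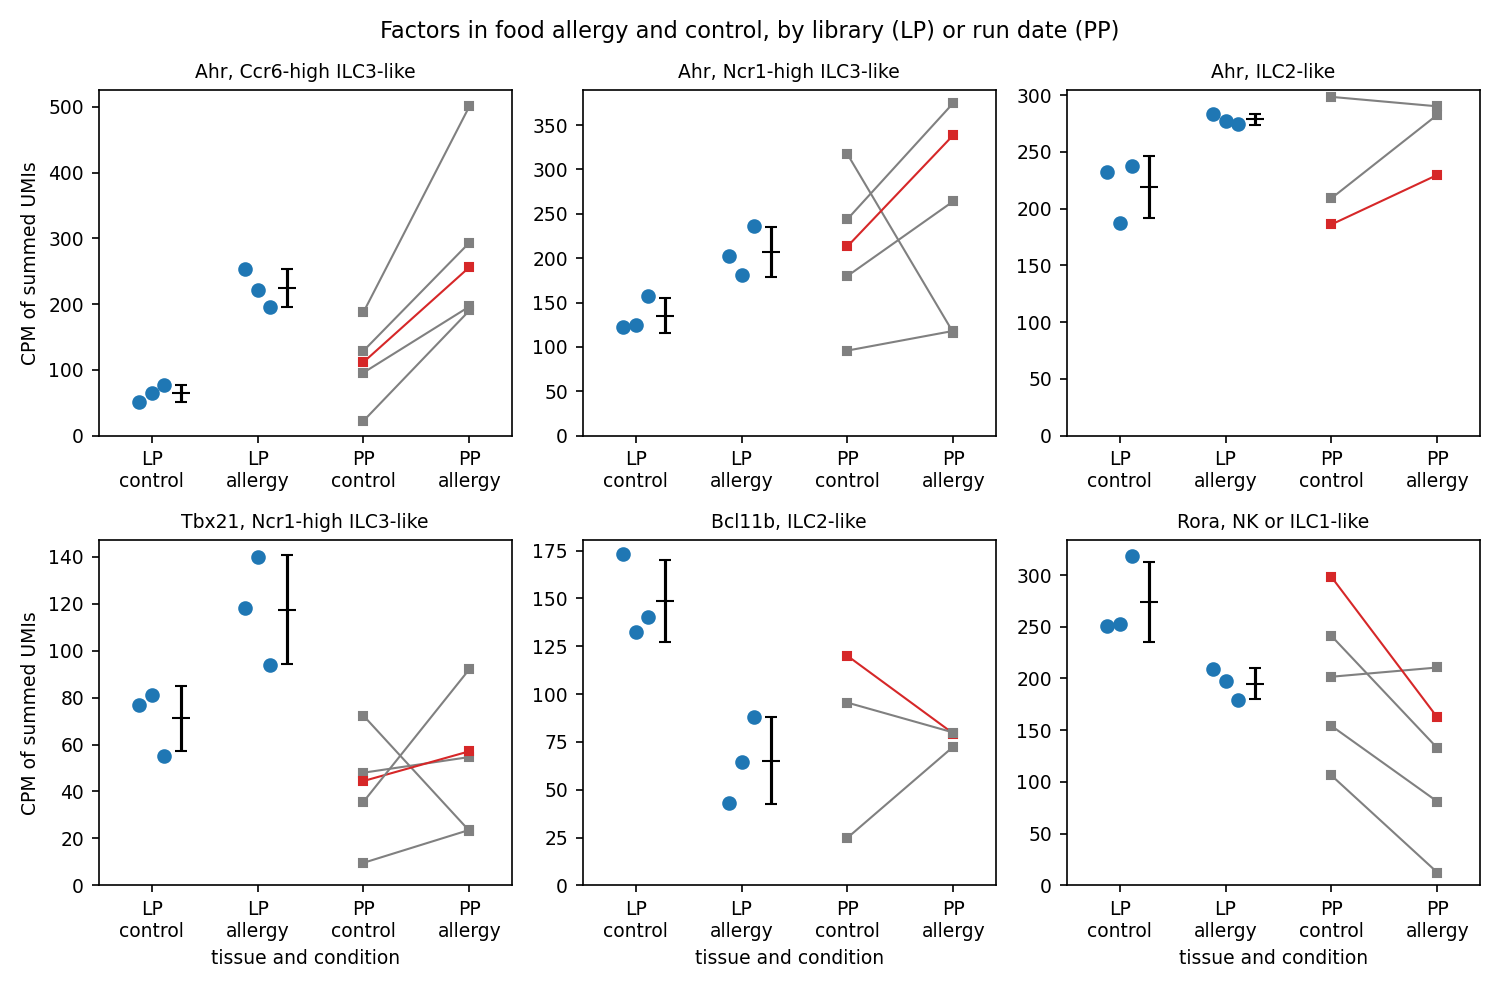
Levels of the factors called in allergy, in CPM of summed UMIs, for each LP library (circles, with mean and SD) and for each date with both conditions in PP (squares joined by a line, date 4 in red). Ahr in Ccr6-high ILC3-like cells is higher in allergy in every LP library and on all 5 PP dates.

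The same comparison in PP was made on sums of all libraries of a date and condition, with the date as a term. The titles give the PP libraries of dates 1 and 2 a location letter, D, I or J, whose meaning is not given. Allergy library D of date 1 was not analysed here, so on that date I and J in allergy were set against D, I and J in control. The part of location in the values was not tested, other than by leaving out date 1. Of 52 class and factor pairs tested, edgeR called 2, against 0.591% of all class and gene pairs. DESeq2 also called 2. Without date 4 or date 5, 0 were called, and without date 1, 2 or 3 there were 9, 5 and 6. Ahr in Ccr6-high ILC3-like cells was called, in a class with 1.16% of all genes called. On dates 1 to 5 it was at 188, 22.7, 95.9, 112 and 129 CPM in controls and at 501, 190, 196, 256 and 294 CPM in allergy. It was higher in allergy on 5 of 5 dates, and the groups did not overlap, although the lowest control and the highest allergy value came from 1 and 17 UMIs. The log2 fold change was 1.18 ± 0.15, or 2.27-fold, with an adjusted p of 0.000271. Without date 4, which stood apart, it was 1.26 with an adjusted p of 0.104. Without date 1 it was 1.15 (0.000305), without date 5 it was 1.25 (0.0533), and without the date term it was 1.03 (1.00).

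Rora in NK or ILC1-like cells was the other, in a class with 1.14% of all genes called. On dates 1 to 5 it was at 106, 202, 154, 298 and 241 CPM in controls and at 12.4, 211, 81.0, 162 and 133 CPM in allergy. It was lower on 4 of 5 dates, with overlap between the groups, and the value of 12.4 CPM came from 1 UMI. It had a log2 fold change of -0.93 ± 0.16, or 1.90-fold lower, with an adjusted p of 0.00707. Without date 1 it was -0.88 (adjusted p = 0.000584), without date 4 -0.91 (0.255), without date 5 -0.96 (0.418), and without the date term -0.82 (1.00). In LP the same class had Rora at 251, 252 and 319 CPM in controls and 209, 197 and 179 CPM in allergy. This difference was not called (log2 -0.43 ± 0.18, adjusted p = 0.308). The share of the class in the sub-clusters with high Eomes was 50% to 62.2% in PP controls and 40% to 69.4% in PP allergy, and 19.6% to 36.2% and 30.3% to 50.6% in LP. NK or ILC1 markers in the class summed to 19587 to 25994 CPM in LP controls and 32680 to 37667 CPM in LP allergy, and to 20073 to 27621 and 20664 to 32129 CPM in PP. Their part in the Rora values was not tested.

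No other factor was called in PP. In Ncr1-high ILC3-like cells Rora had a log2 difference of -0.46 ± 0.12 and Id2 of 0.70 ± 0.19, both with an adjusted p of 0.0674. Both were called without date 1 or date 3 (0.0149 and 0.0176 for Rora, 0.0162 and 0.000346 for Id2), and Id2 also without date 2 (1.14e-05). Gata3 in ILC2-like cells was at 643, 697, 1065 and 1456 CPM in controls and at 1356 to 1614 CPM in allergy, which overlapped (log2 0.36 ± 0.17, adjusted p = 0.447). The values of 643 and 697 CPM lie below the range of 1065 to 1858 CPM given above for libraries with at least 20 cells. Sums tested here needed only 10 cells. Tbx21 in Ncr1-high ILC3-like cells, called in LP, had a log2 difference of 0.73 ± 0.23 in PP with an adjusted p of 0.176. Among the other regulators, Klf2 and Klf6 fell in ILC2-like cells (2.52% of all genes called), Ikzf2, Klf2 and Nfkb1 fell in Ncr1-high ILC3-like cells (1.73%), Ikzf2 and Nfkb1 fell in NK or ILC1-like cells, and Lmo4 rose in Tfh-like cells (log2 1.52 ± 0.19), where 0.0586% of all genes were called. The groups overlapped for each of these 8. The 7 calls in ILC2-like, Ncr1-high and NK or ILC1-like cells were all lost without date 5, and all but that of Klf2 in ILC2-like cells also without date 4, with highest adjusted p-values from 0.105 (Klf6) to 0.752 (Ikzf2 in NK or ILC1-like cells). Lmo4 was lost without date 2 (0.0577).

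The allergy effects in LP and PP were compared by a test of their difference, added after the results in each tissue were known. No factor differed at an adjusted p under 0.05. The smallest adjusted p, 0.0773, was for Id2 in Ncr1-high ILC3-like cells, at -0.31 in LP and 0.64 in PP on the log2 scale.

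The controls of the tissues were compared for levels of the factors, although tissue, sort and date cannot be told apart. Of 28 class and factor pairs, edgeR called 0, with 3 at an unadjusted p under 0.05, against 0.178% of all class and gene pairs. DESeq2 called 1. That pair was Eomes in NK or ILC1-like cells, at 55.2 and 93.3 CPM on the 2 LP dates and 150 to 282 CPM on the 5 PP dates. The groups did not overlap (log2 -1.43 ± 0.31, adjusted p = 0.0925 in edgeR and 0.0452 in DESeq2). Without PP date 4 edgeR called it (0.0468). Tcf7 in the same class was at 93.3 and 105 CPM in LP and 142 to 200 CPM in PP (log2 -0.84 ± 0.24, adjusted p = 0.237). In ILC2-like cells edgeR called 0 of 7 factors, with 0 at an unadjusted p under 0.05 and 0 called by DESeq2, where 0.132% of all genes were called. In the NK or ILC1-like class 0.355% of all genes were called.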

How the data were processed

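Bulk cultures were measured by Smart-seq2 and tissue cells by droplet 3′ sequencing. Per the submitters' processing notes, bcl2fastq, Bowtie2, RSEM and Cell Ranger were used with mm10, without stated versions. The authors deposited RSEM expected counts per gene for the cultures, which were rounded to whole numbers here, and UMI counts per gene and cell for the tissues, without normalization. All 58067 deposited cells were kept, with 1170 called doublets (2.01%) left in. Cells were clustered without the 9 factors (leidenalg 0.10.2, resolution 1.5) and named from marker lists, which left 1984 unnamed, so differences from the study's own cell names may come from this rebuilding. Sums of counts per class and library, or per class, date and condition in PP, with at least 10 cells were tested with edgeR 4.0.16 (TMM, filterByExpr, quasi-likelihood test, Benjamini-Hochberg over all genes tested in a class, threshold 0.05) in R 4.3.3, and DESeq2 1.42.0 was an alternative. The cultures were fitted together, and all p-values are two-sided. Levels are CPM in libraries with at least 20 cells of a class. Single-cell CPM are without TMM scaling, and culture CPM are with it. Detection used cells thinned to 1000 UMIs. Intervals are exact 95% Poisson intervals, and these and upper limits (3 counts) cover counting error only. Culture totals and cell depths, given in the text, limit low genes such as Gfi1 most. The scripts were tested on simulated data. Named genes are the 9 factors, up to 6 genes of the comparison lists per comparison and class with the largest change past the threshold, and the 2 genes most alike to each factor; Notch2, Runx3, Klf2 and Lmo4 in ILC2-like cells were named after their values were seen. The factors and lists were chosen with earlier results of these data known. One PP allergy library was not analysed here.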

Additional observations from a re-analysis of the deposited data

Results flagged for a closer look

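Bcl11b in ILC2-like cells of PP allergy was at 28.2 CPM on the third date, below the other dates at 72.6 to 79.9 CPM. Gata3 in NK or ILC1-like cells of PP controls was at 141 CPM on the second date, above the other dates at 77.1 to 95.1 CPM. Each of these dates lay apart from the rest by Dixon's criterion, which was applied to 61 groups, and chance gives such a value in about 1 of 20.

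The LP IgDLow sort had 1 library per condition, so the difference has no replicate check. Each of the 9 factors was compared in ILC2-like, Ncr1-high ILC3-like, Ccr6-high ILC3-like and NK or ILC1-like cells. Counting intervals leave out the spread between libraries, and the share of all genes with separate intervals is not given. The values therefore cannot show whether the factors differ more often than other genes. Among them, 5 values in the allergy library had a 95% counting interval wholly above that of the control library. Id2 in Ncr1-high ILC3-like cells was at 1476 CPM in allergy (lower bound 1394) and 1296 CPM in control (upper bound 1377). Tbx21 in the same class was at 109 CPM (lower bound 87.5) and 57.6 CPM (upper bound 76.8). Id2 in Ccr6-high ILC3-like cells was at 1539 CPM (lower bound 1413) and 1049 CPM (upper bound 1138). Ahr in that class was at 125 CPM (lower bound 91.5) and 54.5 CPM (upper bound 77.7). Id2 in NK or ILC1-like cells was at 1160 CPM (lower bound 1006) and 627 CPM (upper bound 731). Another 4 values, all of Rora, had an interval wholly below that of the control library. Rora in ILC2-like cells was at 705 CPM in allergy (upper bound 804) and 1047 CPM in control (lower bound 908). It was at 561 CPM (upper bound 616) and 725 CPM (lower bound 667) in Ncr1-high ILC3-like cells. In Ccr6-high ILC3-like cells it was at 499 CPM (upper bound 578) and 1060.1 CPM (lower bound 976), and in NK or ILC1-like cells at 158 CPM (upper bound 229) and 376 CPM (lower bound 306).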

How the results depend on the processing

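The number of factors called for CGRP against base medium was 4 with DESeq2, 0 with the replicate block and 0 to 3 when 1 library was left out. For both agents against IL-25 it was 2 with DESeq2, 1 with no filter on low counts and 0 to 1 without 1 library. For both agents against base medium it was 2 with DESeq2, 0 with no filter, 0 with the replicate block and 0 to 1 without 1 library. The labels do not say whether same-numbered culture libraries are paired. Such libraries had correlations of deviations from -0.14 to 0.128, which with 3 or 4 libraries per group cannot decide it. In LP the number of called pairs was 1 with DESeq2, 2 with no date term and 2 to 10 without 1 library (2 without allergy 1, 3 without allergy 2 or control 1, 10 without allergy 3 or control 3). In PP it was 4 with no filter, 0 with no date term and 0 to 9 without 1 date. Between tissues it was 1 with DESeq2, 1 with no filter, 2 with both conditions in the fit and 0 to 1 without 1 date. The cause was not tested for any of these. No called value changed sign under the alternatives run, whereas 140 of 2815 values, from 55 results that were not called, did. For single factors and list genes, leaving out a library or date kept 1390 values on their side of the threshold, with 109 calls lost and 31 gained, and the other alternatives kept 1206, with 59 lost and 20 gained. Depth limits Gfi1 in the cultures and classes with few UMIs in PP.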
